A study of Rattus norvegicus with 180 samples.

Results

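The miR-17-92 and miR-106b-25 clusters are short stretches of the rat genome that each give rise to several microRNAs (miRNAs) from 1 transcript. Their 9 guide strands, the strands that are loaded onto Argonaute, were taken by name from the 717 rat miRNAs on the array: miR-17-5p, miR-18a, miR-19a, miR-20a, miR-19b and miR-92a for miR-17-92, and miR-106b, miR-93 and miR-25 for miR-106b-25. All 9 were present, and all 9 passed the filter on dim miRNAs that left 345 miRNAs for testing. RNA came from male Sprague-Dawley rats of 10 weeks with no drug treatment. In 3 rats (rats 4, 5 and 6) the blood was washed out with saline before 55 organs were taken, and in 3 others (rats 1, 2 and 3) liver, kidney, lung, heart atrium and heart interventricular septum were taken without this perfusion, which gave 180 single-colour arrays. The intestine samples were mucosal epithelium scraped from the wall. Values are scaled intensities, that is, spot intensities after each array was brought to a common 75th percentile over the 37 miRNAs detected on every array, and differences are in log2 units. They describe an organ as a whole, so fewer cells of a type and less of a miRNA per cell cannot be told apart.

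A miRNA of this kind is processed from a hairpin by Drosha and Dicer and represses messenger RNAs that match its seed, bases 2 to 8 from the 5′ end. The miR-17-92 cluster is known as a target of the MYC and E2F transcription factors, is amplified in some lymphomas, and is needed for normal B cell development. The miR-106b-25 cluster lies in an intron of Mcm7, whose protein is part of the helicase that unwinds DNA for replication. Known targets of these families include the cell cycle inhibitor Cdkn1a and the pro-apoptotic factor BIM. The question asked of the organ panel was whether the 9 miRNAs were higher in organs rich in dividing cells (thymus, bone marrow, testis and the 6 intestine segments) than in others. The others were parts of the brain and spinal cord, and striated muscle with the heart. The 2 classes are called proliferating and quiet below. Cell division was not measured, so these names rest on the kind of organ.

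The mature sequences from RefSeq (GRCr8) are shown because their seeds put the 9 miRNAs, across both clusters, into 4 groups. The seed is in capitals, and the prefix rno, for rat, is left out of the names elsewhere.
rno-miR-17-5p: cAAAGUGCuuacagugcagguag
rno-miR-20a: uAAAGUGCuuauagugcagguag
rno-miR-106b: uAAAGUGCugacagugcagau
rno-miR-93: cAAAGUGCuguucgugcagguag
rno-miR-18a: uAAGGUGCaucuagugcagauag
rno-miR-19a: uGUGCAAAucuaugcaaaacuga
rno-miR-19b: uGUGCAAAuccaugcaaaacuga
rno-miR-92a: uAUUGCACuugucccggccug
rno-miR-25: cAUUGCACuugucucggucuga

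The seed AAAGUGC was shared by miR-17-5p and miR-20a of one cluster and miR-106b and miR-93 of the other, and AUUGCAC by miR-92a and miR-25. With positions counted from 1 at the 5′ end and the base of the first-named miRNA written first, miR-17-5p and miR-20a differed by C1U and C12U, and miR-19a and miR-19b by U11C alone. Between miR-92a and miR-25 the differences over the shared length were U1C, C14U and C18U. Probes of such near-identical miRNAs can bind each other's targets, so the members' values are not independent measurements. In GRCr8 the miR-17-92 hairpins lie at chr15:98587848-98588632 on the plus strand, and no gene of the RefSeq table spans them. The miR-106b-25 miRNAs lie at chr12:22156641-22157123 on the minus strand, within Mcm7 (chr12:22155921-22163320). Another cluster on the X chromosome (minus strand) holds copies whose mature sequences are identical to miR-17-5p (in Mir106a), miR-19b (in Mir19b2) and miR-92a (in Mir92a2), and for these 3 miRNAs the arrays cannot tell the loci apart.

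Before the comparisons, the organs were checked against marker miRNAs. The summed intensity of 3 neuronal markers (miR-124, miR-9 and miR-9*) was 2213 to 21596 in the 24 arrays of nervous organs and at the floor (32.5 for 3 miRNAs) in thymus, bone marrow, gut and muscle. Summed striated muscle markers (miR-1, miR-133a, miR-133b and miR-206) were 35964 or more in the 18 muscle arrays, gut epithelium markers (miR-192, miR-194 and miR-215) 4780 or more in the 18 gut arrays, and testis markers (miR-34b, miR-34c and miR-449a) 30736 or more in testis, so the labels were borne out. The 75th percentile before scaling differed between the organ classes, with a median of 958 over the 27 proliferating arrays and 2274 over the 42 quiet arrays, and 86 to 244 miRNAs were detected per array. In pancreas it was only 68.0 to 121, so that intensities there were multiplied up strongly by the scaling. Of the 8 arrays whose labels give 2 different rat numbers, 7 belong to quiet organs, and leaving them out changed no call of a member in the comparison of organ classes.

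**Figure D1:**
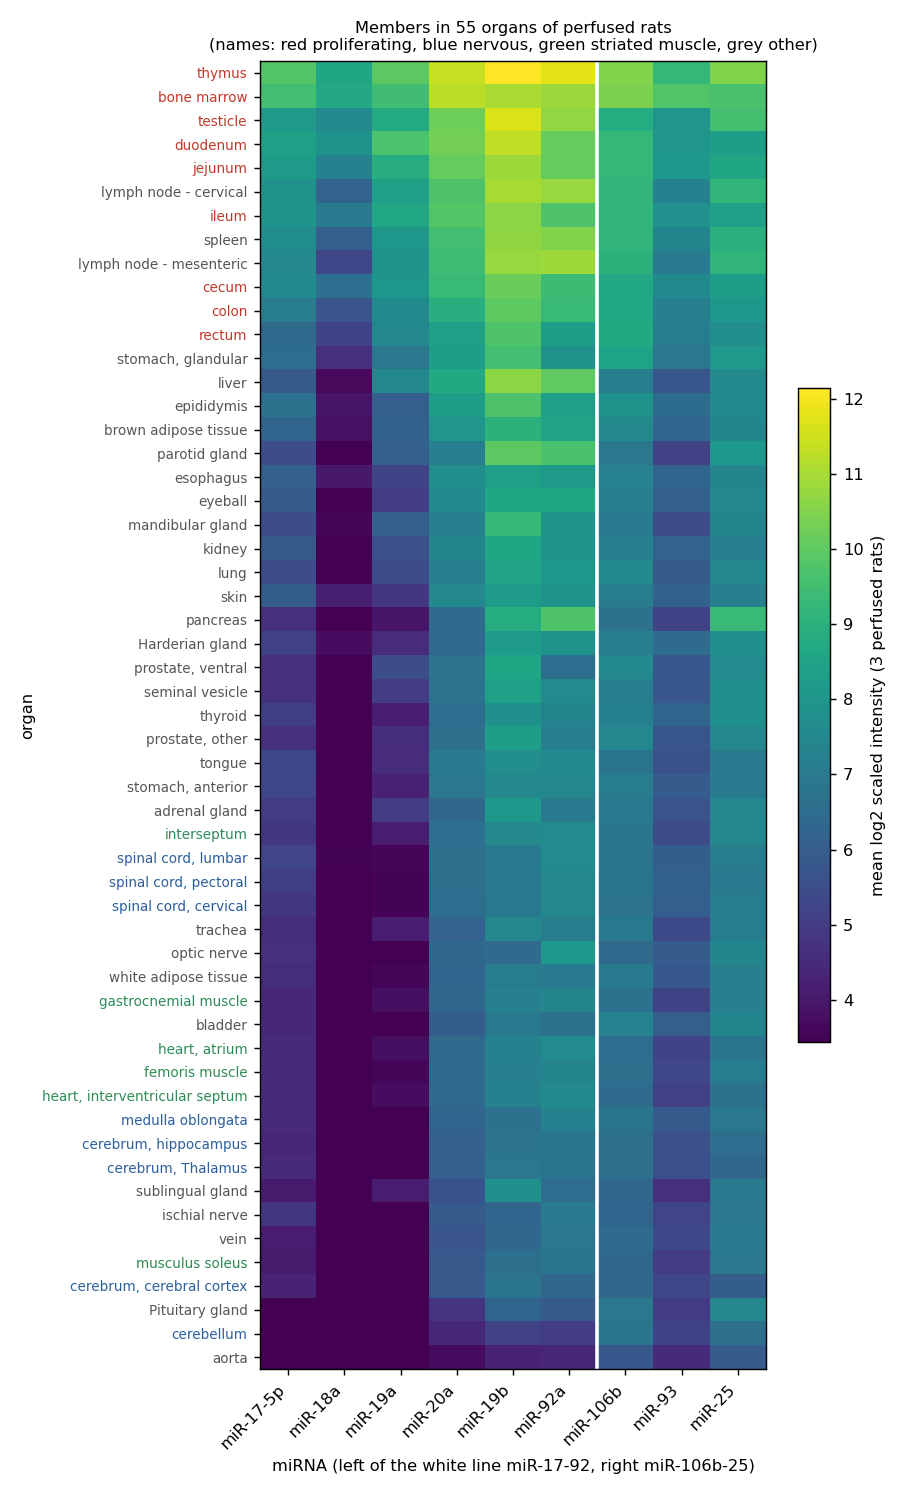
Mean log2 scaled intensity of the 9 miRNAs (columns) in the 55 organs of perfused rats (rows, 3 rats each), with organs ordered by the mean over the members; colours can be compared within a column only, because probes of different miRNAs differ in brightness. Thymus, bone marrow and testis head the order, spleen and lymph nodes lie among the gut segments, and cerebellum and aorta come last.

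All 9 miRNAs were higher in the proliferating organs than in the quiet organs. In limma, with 1 mean value per organ (9 proliferating against 14 quiet organs), the log2 differences ran from 1.93 for miR-25 to 5.13 for miR-19a, an order that depended on the floor: with the floor set 4 times as high they ran from 1.78 for miR-18a to 3.93 for miR-19b, and miR-19a was at 3.29. Across all 345 miRNAs tested, 28.1% were higher by the same rule (adjusted p under 0.05), 54.2% were called in either direction, and the median difference was 0.02. The members of miR-17-92 rose more than those of miR-106b-25, by 1.48 on average between the cluster means, a value given without a test that moved to 0.72 with the floor set 4 times as high and 0.63 with another background correction. The organs are not independent units. Many are neighbouring parts, such as the gut segments or the levels of the spinal cord, and all came from the same rats. The p-values of this fit can therefore be too small. With the gut taken as 1 organ, the members' differences ran from 2.63 to 5.55.

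In miR-17-92, miR-19a and miR-19b are the pair that carries the GUGCAAA seed. miR-19a had a lowest, median and highest intensity of 135.9, 445.9 and 1029 in the 27 proliferating arrays. In the 42 quiet arrays these were 10.8 (the floor), 10.8 and 17.8. The ranges were far apart, and the difference of 5.13 (SE 0.24; adjusted p = 1.2e-13, limma) ranked first by p among the 345 miRNAs. Because miR-19a was detected on only 19 of the 42 quiet arrays, this size depends on the floor. miR-19b, which was detected on every quiet array, had a lowest, median and highest intensity of 728, 1883 and 4758 in the proliferating arrays and 25.4, 129 and 196 in the quiet arrays. The ranges did not overlap, and the difference was 3.95 (SE 0.28; adjusted p = 2.7e-10).

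miR-17-5p and miR-20a carry the seed AAAGUGC, for which Cdkn1a is a known target. miR-17-5p ranged from 79.4 to 1006 with a median of 283 in the proliferating arrays, and from 10.8 to 63.2 with a median of 23.3 in the quiet arrays. miR-20a ranged from 288 to 2944 with a median of 1099, against 14.2 to 134 with a median of 83.7. For both, every proliferating array lay above every quiet array, with differences of 3.62 (SE 0.31) and 3.76 (SE 0.32; adjusted p = 4.9e-09 for each). miR-20a was detected on all 42 quiet arrays but miR-17-5p on only 19, so the size for miR-17-5p depends on the floor, and it became 2.09 after normexp background correction. For both, the array nearest to the proliferating organs was the lumbar spinal cord of rat 4.

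miR-18a, whose seed differs from that of miR-17-5p by A4G, had a lowest, median and highest intensity of 28.4, 166 and 539 in the proliferating arrays. It was detected on 27 of 27 of them, and on 1 of the 42 quiet arrays, which had the highest quiet value of 13.1. The fitted difference of 3.74 (SE 0.31; adjusted p = 3.3e-09) is therefore measured against the floor, and it became 1.78 with the floor set 4 times as high.

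miR-92a, whose seed AUUGCAC is known for repression of BIM, ranged from 267 to 3719 with a median of 1074 in the proliferating arrays and from 18.9 to 276 with a median of 166 in the quiet arrays. It was the only member whose ranges overlapped. The rectum of rat 6 (266.9) lay below the lumbar spinal cord of rat 4 (276.5), and the other 26 proliferating arrays lay above all quiet arrays. The difference was 2.94 (SE 0.36; adjusted p = 7.6e-07).

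Of the 3 miRNAs of miR-106b-25, miR-106b and miR-25 were detected on all 42 quiet arrays and miR-93 on 37. miR-106b, the counterpart of miR-17-5p by seed, ranged from 349 to 1724 with a median of 543 in the proliferating arrays and from 70.8 to 130 with a median of 105 in the quiet arrays. The SD over the quiet organ means was 0.17 in log2 units under this scaling, and the difference was 2.61 (SE 0.19; adjusted p = 5.9e-10). miR-93, of the same seed, ranged from 109 to 1108 with a median of 254, against 28.5 to 72.5 with a median of 44.3, a difference of 2.58 (SE 0.26; adjusted p = 6.5e-08). miR-25, the counterpart of miR-92a, ranged from 187 to 1512 with a median of 363, against 60.7 to 186 with a median of 120. Its classes met at the edge, the rectum of rat 5 (186.9) against the interseptum of rat 4 (185.5), and its difference of 1.93 (SE 0.27; adjusted p = 5.6e-06) was the smallest of the 9 at this floor.

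In all, 8 of the 9 members had every proliferating array above every quiet array, where 12 of the 345 miRNAs (3.48%), these 8 among them, did. This was counted under this scaling only, which raised the proliferating arrays relative to the quiet ones, and for miR-25 the classes barely separated. The difference was positive in each of the 3 rats taken alone for each member, from 1.91 (miR-25, rat 5) to 5.23 (miR-19a, rat 6). Every member kept its call under each of the alternatives in which it was tested. Without scaling between arrays, the differences ran from 1.02 to 4.29 with a median of -0.26 over all miRNAs, and 67 of 194 calls were higher instead of 97 of 187; after normexp background correction they ran from 1.62 to 3.34 with a median of 0.59, and 210 of 234 calls were higher. Relative to the median of all miRNAs, all 9 members stayed higher under both.

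**Figure D2:**
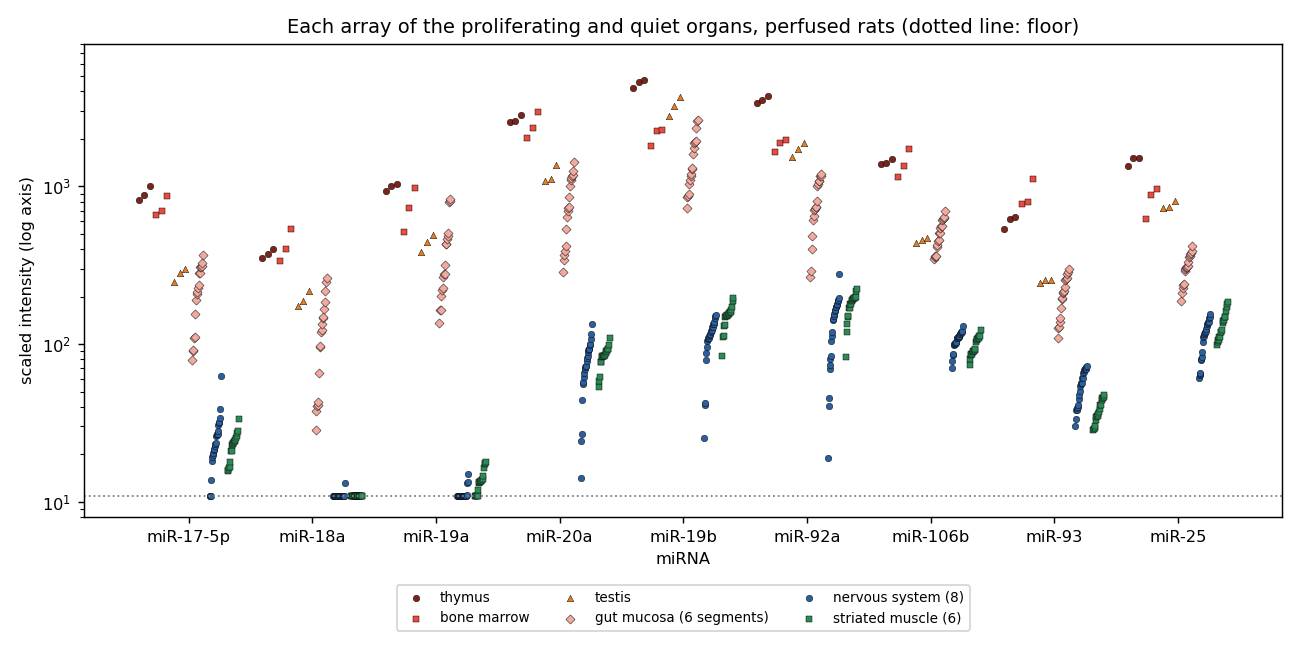
Scaled intensity (log axis) of each member on every array of the proliferating organs (thymus, bone marrow, testis, 6 gut segments) and quiet organs (8 nervous, 6 striated muscle) of the 3 perfused rats. Points of the proliferating organs lie above those of the quiet organs for 8 members, and for miR-92a 1 rectum array (266.9) lies below 1 spinal cord array (276.5); the dotted line is the floor of 10.8.

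Taken organ by organ, in limma with 1 term for each of the 55 organs and the spread between rats as error, all 9 were again higher than the mean of the quiet organs. The members ran from 3.65 (miR-25) to 6.35 (miR-19a) in thymus, where 32.2% of all miRNAs were higher, and from 2.80 (miR-25) to 5.89 (miR-19a) in bone marrow, where 32.8% were. They ran from 2.17 (miR-106b) to 5.18 (miR-19a) in testis and from 1.37 (miR-25) to 4.79 (miR-19a) in the mean of the gut segments, with 38.3% of all miRNAs higher in each. In testis the lowest member was at 1.04 with the 75th percentile over all miRNAs, 1.01 with quantile normalization and 1.22 in the authors' values. In spleen and the cervical and mesenteric lymph nodes, lymphoid organs outside the comparison above, all 9 were higher too, from 1.70 (miR-93) to 4.52 (miR-19a), with 29.3% of all miRNAs higher, but the lowest was miR-18a with the floor set 4 times as high (0.46) and after normexp (0.43), against 2.41 here. The share of higher calls over all miRNAs moved with the scaling. With the 75th percentile taken over all miRNAs it was 72 of 220 calls in testis instead of 132 of 255, and 129 of 246 calls in spleen and lymph nodes instead of 101 of 255. Without scaling it was 75 of 231 instead of 111 of 251 in thymus, 41 of 216 instead of 113 of 252 in bone marrow, 57 of 230 in testis and 89 of 260 instead of 132 of 284 in gut. With normexp it was 94 of 143, 261 of 301, 264 of 289 and 239 of 304 in these 4. With quantile normalization and in the authors' table it was 74 of 222 and 82 of 231 in testis, and with the authors' values it was 125 of 251 in spleen and lymph nodes. The members stayed higher in all of these, apart from miR-106b in testis without scaling, whose difference of 0.46 was not called (adjusted p = 0.15).

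**Figure D3:**
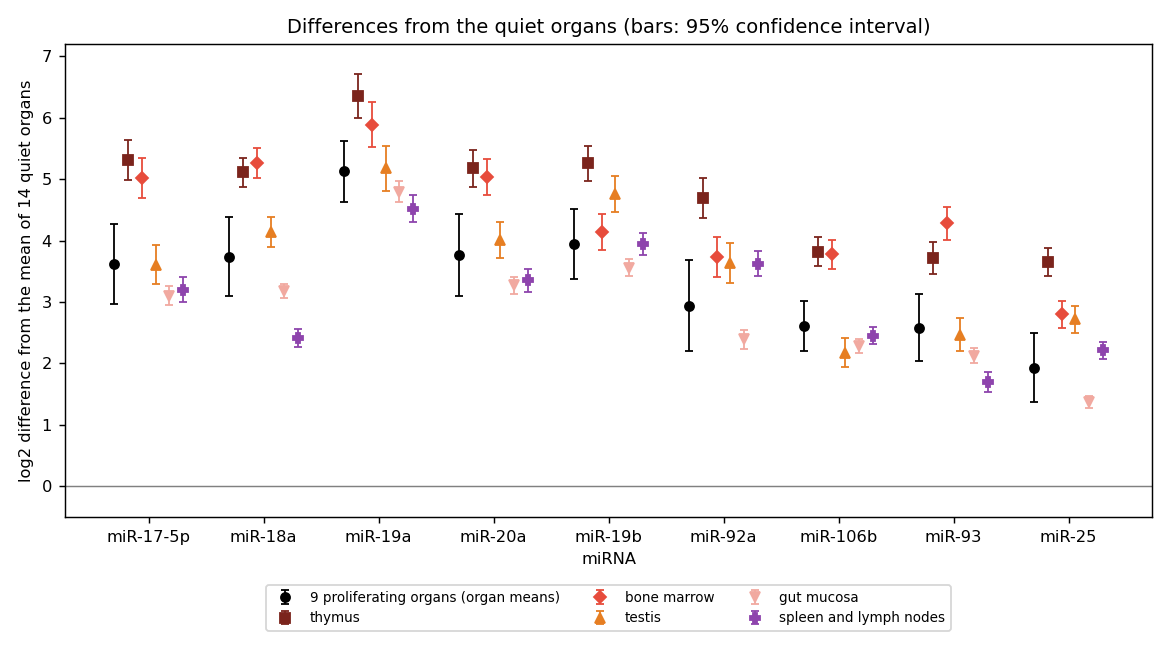
Log2 difference of each member from the mean of the 14 quiet organs, with 95% confidence intervals, for the 9 proliferating organs taken as organ means (black) and for single organs or organ sets fitted with 1 term per organ. All points lie above 0, from 1.37 (miR-25 in gut) to 6.35 (miR-19a in thymus).

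Thymus, the site of T cell development, held the highest mean of 7 members. miR-20a was at 2610, 2821 and 2542 there in rats 4, 5 and 6, miR-19b at 4612, 4758 and 4224, and miR-92a at 3375, 3719 and 3547. The 3 rats lay close together (4531 ± 276 for miR-19b, SD, n = 3), and for miR-19b, miR-92a and miR-25 no array of another organ reached the thymus arrays. For the other members at least 1 bone marrow array lay above the lowest thymus array. Bone marrow, the site of blood cell formation, held the highest mean of miR-93, at 772, 791 and 1108, clear of thymus at 622, 640 and 536. It also held the highest mean of miR-18a, at 335, 401 and 539, but this overlapped thymus at 375, 403 and 350. Marrow of rat 6 was the highest of the 3 for both, and the spread between rats was wide, as for miR-19a at 513, 726 and 981.

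In testis, where germ cells divide throughout adult life, miR-19b was second only to thymus, at 3232, 2780 and 3678. miR-25 stood at 733, 743 and 811, in place 3 behind thymus and bone marrow and overlapping bone marrow. miR-106b reached only 439, 458 and 471 and was in place 9, below the small intestine, spleen and lymph nodes. So the order of the proliferating organs was not the same for all members: testis exceeded the gut mean for miR-25 (2.72 against 1.37) and miR-92a (3.64 against 2.39), gaps that shrank without scaling (1.00 against 0.68 and 1.93 against 1.71). For miR-106b testis was below gut (2.17 against 2.28, and 0.46 against 1.60 without scaling). For miR-93 the order turned, from 2.47 against 2.13 to 0.76 against 1.44 without scaling. None of these differences between testis and gut was itself tested.

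The sum of 4 leukocyte markers was high in part of these organs. The sum of miR-142-3p, miR-142-5p, miR-150 and miR-223 was 31011 to 41439 in thymus, 17738 to 26955 in bone marrow and 15654 to 33351 in spleen and lymph nodes, with all 4 detected on every array there. It was 181 to 912 in the quiet organs. In testis it was 459 to 517, within the quiet range, with 1 of the 4 detected on none of the arrays, and all 9 members were higher there than in the quiet organs. In the gut it ran from 188 in rectum to 5487 in cecum. The 4 markers did not move alike between proliferating and quiet organs. The differences were 4.72 for miR-142-3p, 3.76 for miR-142-5p and 2.03 for miR-223, but -0.93 for miR-150, which did not pass (limma, adjusted p = 0.080). The sum of the red cell markers miR-451 and miR-144 was 21313 to 35528 in bone marrow and 24.4 to 7770 in spleen and lymph nodes, against 21.7 to 849 in the quiet organs and 31.0 to 64.1 in thymus. The part of leukocytes and red cells in the values of thymus, marrow, spleen and lymph nodes was not tested.

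Outside these classes, 32 organs remained. Under this scaling, levels above the lowest proliferating organ were found for 2 (miR-93) to 9 (miR-92a) of these 32, always including the spleen and the cervical lymph node. Liver stood out for part of miR-17-92. miR-19b was at 1786, 1321 and 1698 there, miR-92a at 1231, 943 and 994, and miR-20a at 476, 388 and 411. In the same livers miR-18a was not well above background on any of the 3 arrays, and miR-93 (45.5, 56.3 and 61.2) on only 1. Relative to the quiet organs, liver was 2.45 higher for the mean of miR-17-92 and 0.47 higher for the mean of miR-106b-25. The 75th percentile before scaling was 454 to 569 in liver, against a median of 2274 in the quiet organs and 3006 in rectum, so the scaling raised liver relative to both. Its part in the level of liver among the organs was not tested. In the difference between the clusters a factor per array cancels, apart from values at the floor.

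In pancreas only miR-25 and miR-92a, which share a seed, were detected on all 3 arrays. miR-25 was at 510, 704 and 730, in place 4 among the organs, and miR-92a at 707, 944 and 971. The other 7 members were detected there on none of the arrays, except miR-19b on 2. Only 86 to 108 miRNAs were detected on the pancreas arrays. The 75th percentile before scaling was 68.0 to 121 there, against a median of 2274 in the quiet organs. The scaling therefore multiplied the pancreas values up strongly, and its part in the high places of miR-25 and miR-92a was not tested. In parotid gland miR-19b was at 1128, 912 and 968 and miR-92a at 656, 717 and 1060. There miR-20a and miR-106b were also detected on all 3 arrays, while miR-18a and miR-93 were not well above background. In glandular stomach miR-106b reached 337, 372 and 373, above all quiet arrays, and miR-18a 21.2, 23.7 and 29.3, detected on 3 of 3 arrays.

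At the other end, aorta had the lowest mean of 6 members. miR-19b was at 18.9, 26.8 and 15.7 there, miR-106b at 62.7, 65.4 and 44.9, and miR-25 at 70.7, 70.3 and 47.2. The 75th percentile before scaling had a median of 5099 in aorta and 3798 in cerebellum, against 2274 in the quiet organs, so the scaling lowered both relative to them. Cerebellum was next to last for miR-20a, miR-19b and miR-92a (24.2, 26.9 and 14.2 for miR-20a), while miR-106b at 120, 111 and 116 was the highest mean of the quiet organs. Pituitary gland had the same shape, with miR-19b at 73.1, 83.7 and 72.0, in place 53 of the 55 organs, and miR-25 at 159, 193 and 176, in place 27. Across the whole order, neighbouring organs could seldom be told apart: of the 54 neighbouring pairs, 48 (miR-92a) to 53 (miR-18a) had overlapping values. miR-18a was detected on all 3 arrays of 15 organs, lung at or near the floor among them, and on none of 32 organs, while miR-92a and miR-25 were detected on every array of the perfused rats.

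Within the gut all 9 members were higher in the small intestine (duodenum, jejunum and ileum) than in the large intestine (cecum, colon and rectum), but the direction turned under at least 1 other scaling for 7 of them, all except miR-18a and miR-19a. miR-18a was at 249, 261 and 217 in duodenum, 184, 149 and 134 in jejunum, and 119, 166 and 122 in ileum. It was at 146, 96.9 and 65.1 in cecum, 95.3, 37.5 and 41.4 in colon, and 28.4, 42.7 and 40.2 in rectum. The small intestine was above the large intestine by 1.58 (95% interval 1.39 to 1.77), and the only overlap was cecum of rat 4 within the range of the small intestine. The other members were higher in the small intestine by 0.38 (miR-25) to 1.36 (miR-19a), and all 9 passed the test, where 34.5% of all miRNAs were higher. For miR-25 the difference was 0.064, 0.67 and 0.40 in rats 4, 5 and 6 taken alone. Without rat 5 the lowest difference of a member was 0.23. The higher values in the small intestine depended on the scaling. The 75th percentile before scaling rose from a median of 579 in duodenum to 3006 in rectum, and of all calls 119 of 139 were higher in the small intestine, against 42 of 100 with the 75th percentile over all miRNAs, 51 of 87 with median scaling, 47 of 104 with quantile normalization, 43 of 102 in the authors' table and 7 of 131 without scaling; with normexp, which moved the median of all miRNAs to 1.12, they were 326 of 332. The members called higher were 5 with the 75th percentile over all miRNAs and to 0 without scaling, where miR-25 (-0.95), miR-106b (-0.82) and miR-93 (-0.64) were lower. A factor per array cancels in the difference between the clusters. The mean of miR-17-92 exceeded that of miR-106b-25 by 0.68 more in the small than in the large intestine, with or without scaling, and by 0.42 more after normexp background correction. Colon of rat 4 stood above the other 2 colons for all 9 members, as for miR-17-5p at 207 against 110 and 111.

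**Figure D4:**
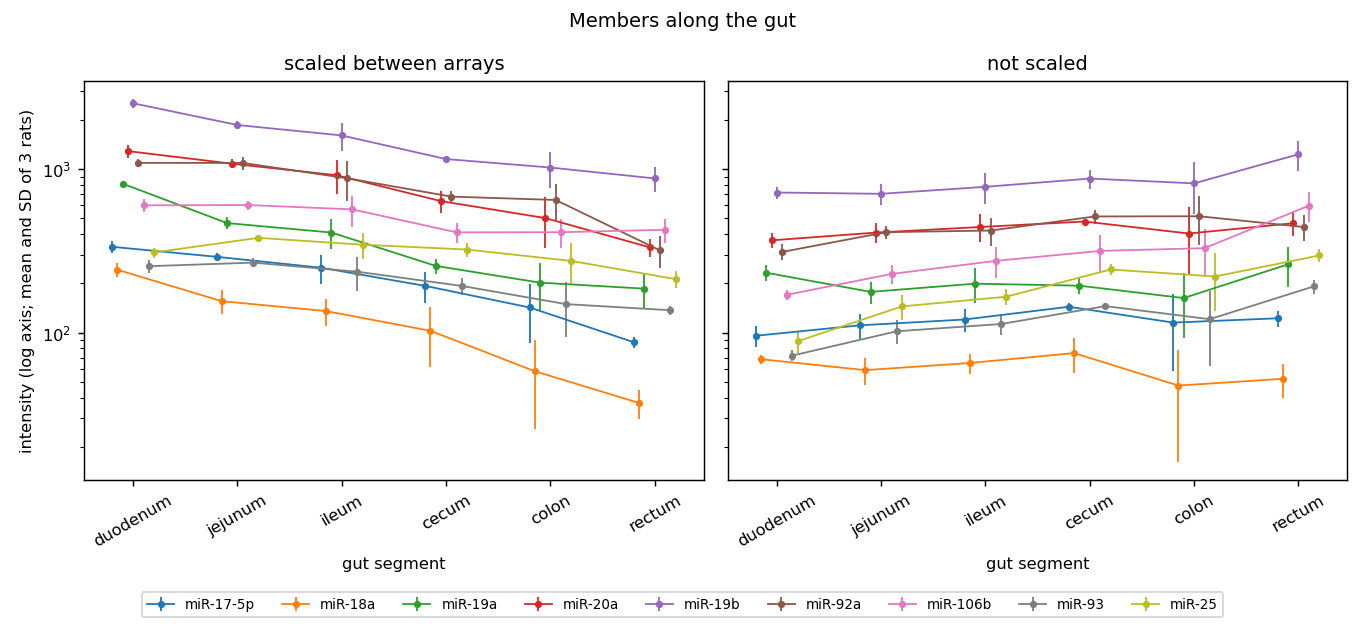
Intensity (log axis, mean and SD of 3 rats) of the members in 6 gut segments from duodenum to rectum, after scaling between arrays (left) and without scaling (right). miR-18a falls from 242 to 37.1 after scaling and from 68.8 to 52.2 without; miR-106b falls from 601 to 426 after scaling and rises from 171 to 598 without.

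Striated muscle and nervous organs, the 2 kinds of quiet organ, differed by at most 0.54 in the members under this scaling, but by up to 2.09 with the 75th percentile over all miRNAs, 1.88 in the authors' values and 1.52 with quantile normalization, and for each of the 9 the direction turned under at least 1 other setting. miR-92a (0.54), miR-19b (0.53), miR-25 (0.32), miR-20a (0.27) and miR-19a (0.26) were higher in muscle in limma, where 24.6% of all miRNAs were, and miR-93 was lower (-0.50), where 42.6% were. So 6 members were called in either direction, as 67.2% of all miRNAs were. Without the 8 arrays whose labels give 2 rat numbers, miR-19a was at 0.23 and did not pass (limma, adjusted p = 0.056). miR-17-5p (-0.06), miR-18a (-0.01) and miR-106b (-0.12) did not pass the test. With the 75th percentile over all miRNAs, miR-93 was at 1.05, and 136 of 231 calls were higher in muscle against 85 of 232. Quantile normalization gave 122 of 234, the authors' own values 125 of 232 and normexp 84 of 169. Without scaling, miR-20a was at -0.34 and 59 of 219 calls were higher.

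The members' profiles over the 55 organ means were alike. Pearson's r between members was 0.77 to 0.98 within miR-17-92, 0.79 to 0.95 within miR-106b-25 and 0.78 to 0.94 between the clusters, with r = 0.95 between the cluster means. These are descriptions over organs that share arrays, scaling and, for near-identical sequences, possibly signal. With the members' relatives described below set aside, the nearest of the other 133 miRNAs detected on at least 50% of the arrays were miR-1949 (r = 0.86), miR-142-3p (0.86), miR-425 (0.83), miR-872 (0.78) and miR-362* (0.74) for miR-17-92, and miR-425 (0.86), miR-142-3p (0.85), miR-1949 (0.80), miR-872 (0.79) and miR-223 (0.67) for miR-106b-25. The highest means of these lay in duodenum (miR-1949, miR-362*), thymus (miR-142-3p), testis (miR-425, miR-872) and bone marrow (miR-223).

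Of the other strands, the X chromosome cluster and related miRNAs, 24 miRNAs were on the array and 7 passed the filter. Of these 7, 5 were higher in the proliferating organs, where 28.1% of all miRNAs tested were. That count is not a result about the relatives, because a miRNA could pass the filter through the organs where it is high. miR-20b-5p, which shares the seed AAAGUGC and differs from miR-17-5p by U10C and C12U, lies in the X chromosome cluster.
rno-miR-20b-5p: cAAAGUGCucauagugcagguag
Its profile had r = 0.98 with miR-17-92 and 0.93 with miR-106b-25. It was higher in the proliferating organs by 3.70 (SE 0.35; adjusted p = 2.1e-08, limma), close to miR-17-5p and miR-20a, and with so few mismatches the 3 probes cannot be taken as separate evidence. A second probe set for it, after an older miRNA release (miR-20b-5p_v15.0), was detected on 3 arrays only and did not pass the test (0.29, adjusted p = 0.19). From the same cluster, miR-363_v15.0 was higher by 1.47 (limma, adjusted p = 0.014) and miR-363, at 0.74, did not pass (adjusted p = 0.11). miR-363_v15.0 was detected on 45 of 180 arrays, with its highest mean in thymus, so it may have passed the filter through organs where it is high. miR-32, which shares the seed of miR-92a, was higher by 0.57 (limma, adjusted p = 0.0050). It was detected on 9 of 180 arrays, with its highest mean in duodenum. Since it could pass the filter only through organs where it is high, its call, though counted among the 5 above, carries no weight. miR-15b and miR-16, known for repression of cyclins, were higher by 2.89 (adjusted p = 1.1e-06) and 1.67 (adjusted p = 8.6e-06). Their profiles had r = 0.85 and 0.78 with miR-17-92 and 0.83 and 0.82 with miR-106b-25, nearer than some of the 5 named for each cluster above. The passenger strands were nearly silent: miR-20a* was detected on 7 arrays and miR-19b-1* on 3, with their highest means in thymus (40.7 and 24.5), and the other 10 strands listed for these clusters and their X chromosome copies on 0. miR-32* was detected on 2 arrays and miR-92b on 1, both highest in pancreas.

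No member passed the test between rats perfused with saline and rats not perfused. The question was whether miRNAs of residual blood add to the organ values. In limma over the 30 arrays of the 5 organs taken both ways, differences of perfused minus not perfused rats ran from -0.22 (miR-92a in lung) to 0.23 (miR-19a in kidney), and their 95% intervals from -0.42 to 0.46. After normexp the kidney differences ran from -0.83 to -0.08, where the median of all miRNAs was -0.65, so that miR-19a in kidney turned, and no miRNA was called there either. Of the 191 miRNAs tested, 0.0% were called in any organ or in the mean of the 5 organs. The test of the perfusion effect between organs also called 0.0%. At an unadjusted p under 0.05, 12 passed in lung, 11 in liver, 4 each in atrium and kidney, 3 in the septum, 5 in the mean and 8 between organs. Other settings called a few miRNAs, such as 5 in lung with median scaling and 6 in liver without the filter. The paper reports that the blood miRNAs miR-451 and miR-144 were seen in rats not perfused but not in perfused rats. With 3 rats against 3, a lack of calls cannot show that residual blood adds nothing. Values of the 2 kinds of rat overlapped in all but 2 of the 45 pairs of member and organ, of which 42 had values that differed at all. In the others, miR-18a in kidney, atrium and septum, every rat was at the floor. The 2 without overlap were miR-19a in kidney and miR-92a in lung. miR-19a in kidney was at 38.1, 43.7 and 40.0 without perfusion and at 50.2, 44.7 and 47.7 with it. miR-92a in lung was at 304, 298 and 332 without perfusion and at 266, 263 and 272 with it, and its unadjusted p of 0.034 became 0.58 after adjustment. Because different rats were perfused, perfusion and rat cannot be told apart within an organ.

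**Figure D5:**
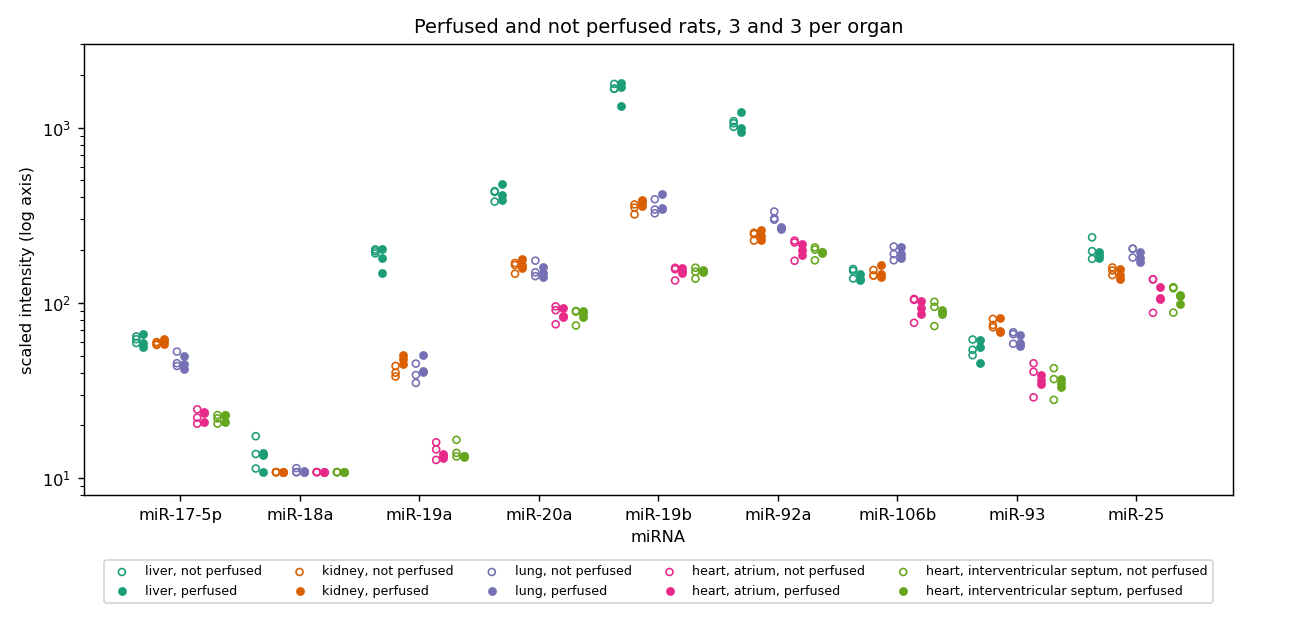
Scaled intensity (log axis) of each member in 5 organs of rats not perfused (open circles, rats 1 to 3) and perfused with saline (filled circles, rats 4 to 6). Open and filled circles overlap in all but 2 of 45 pairs, miR-19a in kidney and miR-92a in lung. For miR-18a in kidney, atrium and septum every circle lies at the floor.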

How the data were processed

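Total RNA of 180 samples was labelled and hybridised by the authors, 1 sample per array, to a custom Agilent array of 717 rat miRNAs (14340 spots), and scanned spots were quantified with Agilent Feature Extraction 10.7.3. The deposited scanner files hold intensity values, and gProcessedSignal, the background-corrected intensity, was used. The authors' own table holds intensity values that equal the scanner's total signal per miRNA multiplied by 1 factor per array (0.411 to 10.5), and served as an alternative. The number of arrays, not read depth, limits the precision.

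Outlier spots (1.63% to 6.42% of the spots of an array) were left out, spots of a probe and then probes of a miRNA were averaged, and each array was scaled to a common 75th percentile. The percentile was taken over the 37 miRNAs found on every array, of which 2 (miR-92a and miR-25) are members. A miRNA was detected where more than 50% of its spots were well above background. Scaled values below a floor of 10.8 were set to it before log2 was taken. No miRNA spot was saturated.

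limma 3.58.1 in R 4.3.3 was fitted to organ means (9 proliferating against 14 quiet organs), to the arrays of perfused rats with 1 term per organ, and to the 30 arrays of the perfusion comparison, with rat as a random block for the mean of the 5 organs. Tests were two-sided, over the 345 miRNAs (191 for perfusion) detected on all 3 arrays of at least 1 organ, and p-values were adjusted by Benjamini-Hochberg over all of them, with a threshold of 0.05. The fits were tested on simulated data. Tables were handled in Python 3.11.15.

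Arrays with the same rat number come from the same rat. The mean correlation of their deviations from the organ means was 0.050, against -0.025 for arrays of different rats. On 8 arrays the labels give 2 different rat numbers, and the title's was used. The miRNAs named are the 9 members, those detected in a list of other strands and relatives, marker miRNAs, and the 5 outside these relatives whose organ profile was nearest to each cluster's. The members and all lists were chosen with earlier results of these data known. Alternatives changed the scaling, floor, background correction, spot summary, filter, set of organs, blocks (rat, slide, scan day) and arrays used. Sequences and GRCr8 positions are from RefSeq.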

Additional observations from a re-analysis of the deposited data

Results flagged for a closer look

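In the 5 organs with 6 rats each, 5 of the 42 sets of member and organ whose values differed at all had 1 rat far from the others by Dixon's ratio (the gap to the nearest rat over the whole range, both taken on log2 values), above the 95% critical value for 6 samples. Chance gives about 1 in 20 such sets. In liver, miR-19b was lowest in rat 5 (1321 against 1663 to 1786, ratio 0.764), as was miR-19a (148 against 181 to 203, ratio 0.637). miR-25 in liver was highest in rat 2 (237 against 178 to 197, ratio 0.643). miR-19a in the interventricular septum was highest in rat 3 (16.6 against 13.3 to 14.0, ratio 0.770). miR-18a in lung was highest in rat 3, at 11.4 with the other rats between the floor of 10.8 and 11.0 (ratio 0.703), a difference at the edge of what the arrays measure.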

How the results depend on the processing

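In the comparison of proliferating with quiet organs, all 9 members stayed higher under the alternatives (8 of 8 with the filter of detection on at least 50% of the arrays, where miR-18a was not tested). The count of all miRNAs called, 187, became 100 with all 46 other organs as quiet, 309 with arrays as the unit, 80 with that filter, 113 with the gut as 1 organ and 92 without gut, and 182 to 189 without 1 rat. The replicate block (rat as a fixed term) left this count at 187 and changed no call of a member in any comparison.

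Small against large intestine had 9 members higher, but 5 with the 75th percentile over all miRNAs and 0 without scaling. The difference turned without scaling for miR-17-5p (-0.20), miR-20a (-0.13), miR-19b (-0.37), miR-92a (-0.36), miR-106b (-0.82), miR-93 (-0.64) and miR-25 (-0.95). It also turned for miR-106b with the 75th percentile over all miRNAs (-0.086) and in the authors' table (-0.046), and for miR-25 with that percentile (-0.22), the median (-0.042), quantile normalization (-0.10) and the authors' table (-0.18).

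Striated muscle against nervous organs had 6 members called, but 3 with median scaling and 3 without scaling. It turned with the 75th percentile over all miRNAs, quantile normalization and the authors' table for miR-106b (1.43, 1.00 and 1.22), miR-17-5p (1.32, 1.22 and 1.15) and miR-93 (1.05, 0.76 and 0.80). It turned with normexp for miR-106b (0.15), miR-17-5p (0.30), miR-18a (0.22) and miR-93 (0.13), and with a floor of 1 for miR-17-5p (0.068) and miR-18a (0.038). It turned with the median for miR-19a (-0.024), miR-20a (-0.10) and miR-25 (-0.061), and without scaling for miR-19b (-0.088), miR-20a (-0.34), miR-92a (-0.072) and miR-25 (-0.30). The cause was not tested for any of these.

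No scaling, normexp on the median signal (offset 50) and leaving out the cervical lymph node of rat 4 were chosen after seeing the data. normexp on the mean signal was not run, as the files used here give the median. Signal over background limits miR-18a, miR-19a and miR-17-5p in quiet organs.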
